A study of Homo sapiens with 12 samples.

Results

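The expression of 8 human selenoprotein genes was followed in HEK293 cells, an established line derived from embryonic kidney. The genes were taken by symbol, as the values list them, and are GPX1, GPX4, TXNRD1, TXNRD2, SEPW1, SELT, SELK and SEPHS2. All 8 of the 8 were found among the 25268 gene symbols listed. Current annotation names SEPW1, SELT and SELK as SELENOW, SELENOT and SELENOK. The cells had been transiently transfected with 2 µg of pCMV6-HIS-HA-RBMX, a plasmid for a HIS- and HA-tagged form of the RNA-binding protein RBMX, while control cells received the mock empty vector. There were 3 cultures per vector, and each culture gave a library of total RNA and a library of polysomal RNA, 12 in all. All cultures received Lipofectamine2000 and, before lysis, 10 µg/ml cycloheximide, which holds ribosomes on their messengers. Lysates were cleared of nuclei and run on a sucrose gradient, total RNA was pooled from 20% of every gradient fraction, and polysomal RNA came from the polysome fractions. Each library was made from 500 ng of RNA. The control libraries carry the genotype label wild type, but these cells had been transfected too, and in the RBMX cells tagged RBMX came on top of the cells' own RBMX.

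Selenoproteins carry selenocysteine, an amino acid in which selenium stands in place of the sulfur of cysteine. It is encoded by UGA, which elsewhere ends translation. The ribosome reads UGA as selenocysteine when a stem-loop near the end of the same messenger, the SECIS element, has recruited the binding protein SECISBP2 and the elongation factor EEFSEC with the selenocysteine tRNA. GPX1 and GPX4 are glutathione peroxidases, of which GPX4 reduces lipid peroxides in membranes and is known for guarding cells against ferroptosis. TXNRD1 and TXNRD2 reduce thioredoxin in the cytosol and in mitochondria. SEPW1 is a small thioredoxin-like protein, while SELT and SELK sit in the membrane of the endoplasmic reticulum. SEPHS2 makes the selenophosphate from which selenocysteine is built, so it is both a selenoprotein and a part of the supply for all the others.

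The members differed in where the selenocysteine codon lies. In the GENCODE v29 annotation (GRCh38), each of the 8 had 1 annotated selenocysteine codon. The windows that follow show this codon with up to 12 coding bases on either side, since it is the feature that all members share. Each was read 5′ to 3′ from the annotated coding sequence, written as DNA, with the codon in capitals.
GPX1: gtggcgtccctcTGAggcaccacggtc
GPX4: gtggcctcccagTGAggcaagaccgaa
TXNRD1: caggctggctgcTGAggttaa
TXNRD2: gtgacaggctgcTGAgggtaa
SEPW1: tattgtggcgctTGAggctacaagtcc
SELT: atttgtgtttccTGAggttataggcgg
SELK: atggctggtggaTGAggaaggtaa
SEPHS2: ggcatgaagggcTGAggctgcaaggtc
The base right after the codon was G in 8 of 8 members. Among the 17 other human selenoprotein genes of the annotation it was G in 5, C in 6, A in 3 and T in 3. The windows of TXNRD1, TXNRD2 and SELK are shorter because their reading frames end with a normal stop codon 1 or 2 codons later.

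In GPX1 the selenocysteine was codon 49 of 203, in exon 1 of 2 (chr3:49357171-49358600, minus strand). GPX4 carried it at codon 73 of 197, in exon 3 of 7 (chr19:1103926-1106791, plus strand). Both reductases had it at the very end, at codon 498 of 499 in the last of 15 exons of TXNRD1 (chr12:104215779-104350305, plus strand) and at codon 523 of 524 in exon 17 of 18 of TXNRD2 (chr22:19875517-19941992, minus strand). SEPW1 had both the earliest codon and the shortest coding sequence, with codon 13 of 87 in exon 2 of 6 (chr19:47778572-47784686, plus strand). SELT held it at codon 49 of 195, in exon 2 of 6 (chr3:150602875-150630445, plus strand). SELK was nearly as short as SEPW1 but had the codon near its end, at codon 92 of 94 in exon 4 of 5 (chr3:53884410-53891988, minus strand). SEPHS2, with a single exon (chr16:30443631-30446181, minus strand), had it at codon 60 of 448, and its reading frame ended with TGA as well. These coordinates are those of the annotation and not of the build behind the expression values.

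**Figure D1:**
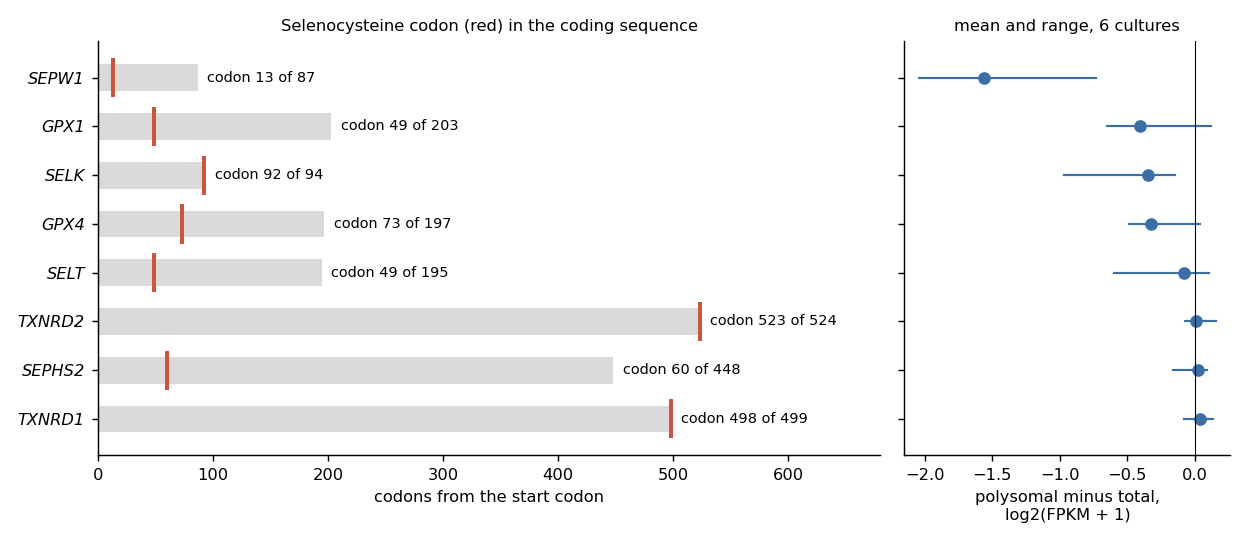
The left panel draws the coding sequence of each member to scale in codons from the start codon, with the selenocysteine codon as a red line, and the right panel gives the mean (point) and range (line) of polysomal minus total RNA over 6 cultures on the log2(FPKM + 1) scale. SEPW1, with 87 codons, sits at -1.56, and the 3 members of 448 codons or more sit between 0.012 and 0.042.

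Expression was deposited in FPKM, that is fragments counted per kilobase of transcript and scaled between libraries. How the libraries were scaled is not known here. No fragment numbers come with the values, so depth is unknown. FPKM summed to between 817528 and 1903317 per library. RBMX itself fitted the labels: it was at 147, 145 and 108 FPKM in control total RNA, 146, 148 and 87.4 in control polysomal RNA, 1731, 2073 and 1460.3 in RBMX total RNA and 1167, 1328 and 1072 in RBMX polysomal RNA. All 6 of 6 markers of HEK293 were found (VIM, KRT8, KRT18, PAX2, NEFM and NEFL). PTPRC, ALB, UMOD, NPHS1 and PECAM1, markers of cells that should be absent, stayed at or below 0.226 FPKM, with UMOD listed at 0 in every library, and COL1A1 ranged from 3.14 to 8.61 FPKM. A culture of each vector stood apart. In control culture 3 the HEK293 markers summed to 429 FPKM in total and 397 in polysomal RNA, against 834 to 974 in the other 10 libraries. The polysomal library of RBMX culture 2 held 241 FPKM of RMRP and 128 of RPPH1, which are RNAs that are not translated, against at most 28.1 and 15.7 in the other polysomal libraries. MALAT1, which is not translated either, was also highest there, at 64.2 FPKM against at most 27.2 in the other polysomal libraries. NEAT1, likewise untranslated, was not, with 76.6 FPKM there and 47.8 to 114 in the others. In total RNA RMRP and RPPH1 differed between the vectors, with RMRP at 126 to 259 FPKM in control and 6.93 to 12.2 in RBMX libraries (log2 difference -4.12, adjusted p = 0.0253) and RPPH1 at 46.0 to 153 and 11.4 to 16.7 (adjusted p = 0.163). There MALAT1 differed by -0.71 (adjusted p = 0.360, limma) and NEAT1 by 0.10 (adjusted p = 0.879, limma). The part of these RNAs in the members' values was not tested. Values without one of the cultures that stood apart are given beside many of the results.

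All 8 members were expressed in every library, and all passed the minimum mean of 0.5 FPKM that 14676 genes passed. FPKM is a value per length, so levels can be compared between genes. In control total RNA the order of mean levels (± SD, n = 3) was GPX4 with 367 ± 28.4 FPKM, GPX1 with 228 ± 4.63, SEPHS2 with 121 ± 6.82, SELK with 92.2 ± 10.6, SEPW1 with 77.0 ± 5.60, TXNRD1 with 52.6 ± 8.85, SELT with 25.8 ± 3.63 and TXNRD2 with 18.1 ± 3.05. Only SELK and SEPW1 were neighbours whose ranges overlapped in this group. RBMX total RNA gave the same order, there with SELT and TXNRD2 as the only overlapping neighbours. In polysomal RNA the glutathione peroxidases stayed on top, followed by SEPHS2 and SELK, and TXNRD1 came before SEPW1, whose mean was 30.9 ± 16.2 FPKM in control and 22.7 ± 3.21 in RBMX cells. There the ranges of SEPW1 overlapped with those of TXNRD1 and SELT in control cells, and with those of TXNRD2 and SELT in RBMX cells. SELT and TXNRD2 overlapped in RBMX cells too, as did SELK and TXNRD1. The symbols of 5 members have processed pseudogene copies in the annotation, 2 of GPX1, 1 of SEPW1, 2 of SELT, 3 of SELK and 1 of SEPHS2, none of which has values of its own here. Whether the counting gave reads of these genes to the members cannot be read from the values.

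**Figure D2:**
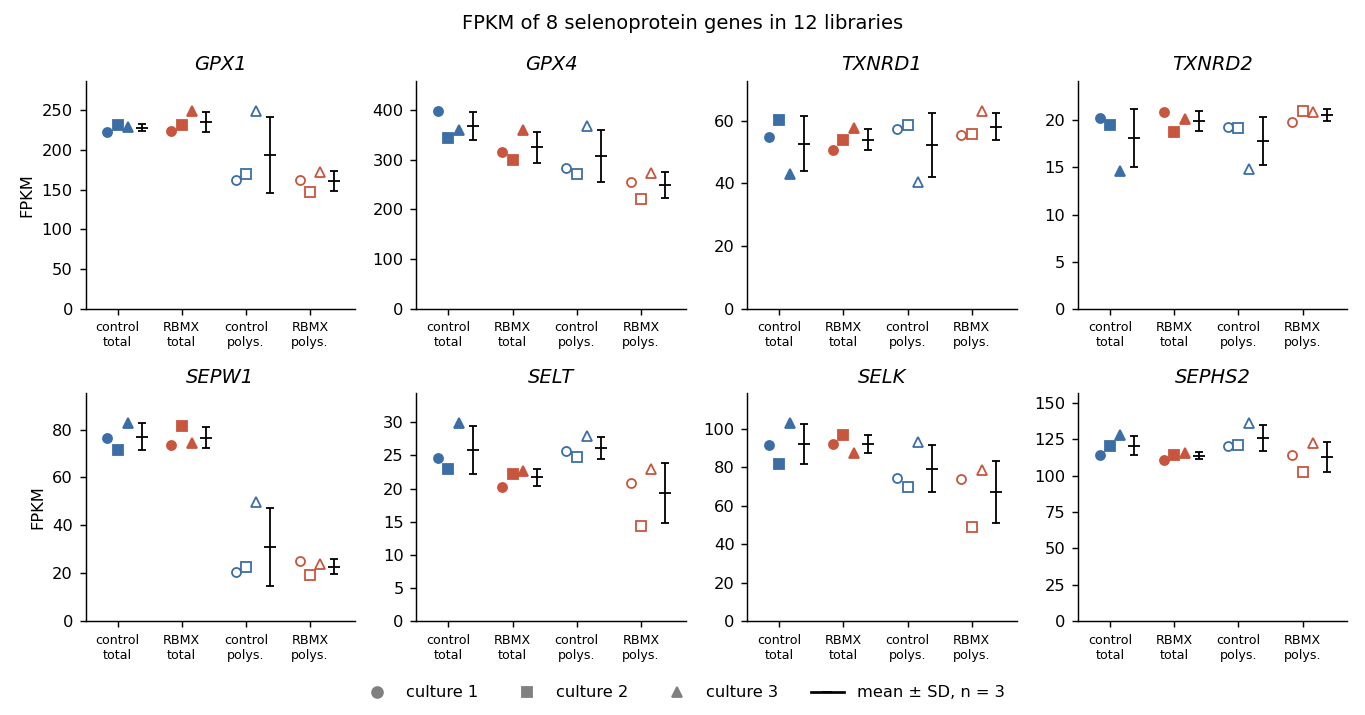
Each panel shows the FPKM of 1 member in the 12 libraries, with control libraries in blue, RBMX libraries in red, filled symbols for total and open symbols for polysomal RNA, the symbol shape for the culture and the black bar for the mean ± SD (n = 3). SEPW1 drops from at least 71.6 FPKM in total RNA to at most 49.6 in polysomal RNA, while the total and polysomal values of every other member overlap.

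The comparison of polysomal with total RNA of the same culture asks which messengers take a smaller or larger share of the RNA on polysomes than of all cytoplasmic RNA. SEPW1 stood lowest in polysomal RNA, about 3 times below total RNA, and GPX1 was lower too. GPX4 and SELK lay below total RNA in most or all cultures without passing the main test over both vectors. That test left out the culture pairing. With the culture as a block GPX4 passed (adjusted p = 0.0439, limma) and SELK did not (adjusted p = 0.0724, limma). SELT, TXNRD1, TXNRD2 and SEPHS2 differed by little. Over both vectors, 2 of 8 members were called lower and 0 higher by limma at an adjusted p of up to 0.05, beside 6.61% of all genes tested (751 lower and 219 higher of 14676). The median difference of the members was -0.20 on the log2(FPKM + 1) scale, against -0.0025 over all genes tested. Values are relative and come from a whole culture, so a lower FPKM gives neither ribosomes per messenger nor absolute amounts. Fewer cells with a messenger and less of it per cell cannot be told apart.

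SEPW1 was at 76.6, 71.6 and 82.7 FPKM in total RNA of control cultures 1 to 3 and at 20.3, 22.7 and 49.6 in their polysomal RNA. In RBMX cells its level was 73.8, 81.7 and 74.3 FPKM in total and 25.3, 19.1 and 23.7 in polysomal RNA. All 6 polysomal values lay below all 6 total values, and control culture 3 had the highest polysomal value. On the log2(FPKM + 1) scale, polysomal minus total was -1.87, -1.61 and -0.73 in control cultures 1 to 3 and -1.51, -2.04 and -1.61 in RBMX cultures 1 to 3. Polysomal FPKM was thus between 0.234 and 0.599 of total FPKM. The difference over both vectors was -1.56 (SE 0.19, 95% confidence interval from -1.99 to -1.13, adjusted p = 0.00466, limma), with an adjusted p of 0.00824 when the culture was a block. It was -1.72 (SE 0.11, adjusted p = 0.00965) in RBMX cells, where the block raised the adjusted p to 0.115, and -1.40 (SE 0.34, adjusted p = 0.597) in control cells. Without control culture 3 the control value was -1.74 with an adjusted p of 0.0219. Over both vectors the adjusted p was 6.63e-05 without control culture 3 and 0.0643 without RBMX culture 2, with a difference of -1.48 in the latter case, and it stayed below 0.05 without each of the other 4 cultures. In RBMX cells alone it was 0.142 without culture 1 and 0.145 without culture 3, with 2 polysomal libraries left.

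**Figure D3:**
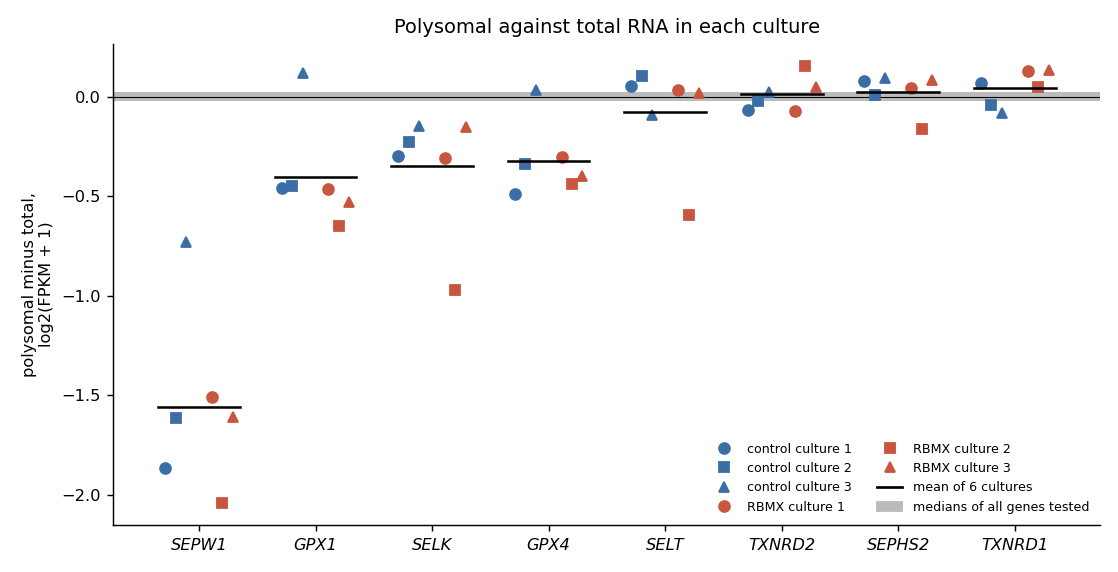
Polysomal minus total RNA on the log2(FPKM + 1) scale is plotted for each member and each of the 6 cultures (blue control, red RBMX, shape for the culture), with the mean as a black line and a grey band for the medians of all genes tested in the 6 cultures. All 6 points of SEPW1 lie at or below -0.73 and all 6 of SELK below 0, while control culture 3 is the only culture above 0 for GPX1 and GPX4.

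The glutathione peroxidase GPX1 was at 223, 232 and 229 FPKM in control total RNA and 162, 169 and 249 in control polysomal RNA. In RBMX cells it was at 224, 232 and 249 FPKM in total and 162, 148 and 173 in polysomal RNA. Polysomal values were lower in 5 of 6 cultures, and control culture 3 went the other way. By culture, the log2 difference of GPX1 was -0.46, -0.45 and 0.12 in control cultures 1 to 3 and -0.47, -0.65 and -0.53 in RBMX cultures 1 to 3. Over both vectors GPX1 fell by 0.41 on the log2 scale (SE 0.10, adjusted p = 0.0487, limma), with an adjusted p of 0.0370 under the culture block. This call was close to the threshold: the adjusted p was 0.00245 without control culture 3, and it lay between 0.119 and 0.220 without control culture 1, control culture 2 or any 1 of the 3 RBMX cultures, where the difference ranged from -0.36 to -0.43. GPX1 stood at -0.55 (SE 0.084, adjusted p = 0.0560) in RBMX cells and at -0.26 (SE 0.18, adjusted p = 0.781) in control cells, where it was -0.45 (adjusted p = 0.0603) without culture 3.

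GPX4 had 399, 344 and 359 FPKM in control total RNA and 284, 271 and 368 in control polysomal RNA. In RBMX cells the values of GPX4 were 315, 301 and 360.3 FPKM in total and 255, 222 and 273 in polysomal RNA. As for GPX1, only control culture 3 was not lower in polysomal RNA. By culture the log2 difference of GPX4 was -0.49, -0.34 and 0.036 in control cultures 1 to 3 and -0.30, -0.44 and -0.40 in RBMX cultures 1 to 3. Over both vectors it was -0.32 (SE 0.10, adjusted p = 0.0787), which did not pass, and the adjusted p was 0.0439 with the culture as a block and 0.0229 without control culture 3.

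SELK, a membrane protein of the endoplasmic reticulum with a part in protein degradation and calcium flux, was at 91.7, 81.9 and 103 FPKM in control total and 74.5, 69.9 and 93.0 in control polysomal RNA. Its levels in RBMX cells were 91.8, 96.8 and 87.6 FPKM in total and 74.0, 49.0 and 78.7 in polysomal RNA. Polysomal was below total RNA in 6 of 6 cultures, with RBMX culture 2 farthest down. By culture the log2 difference of SELK was -0.30, -0.23 and -0.14 in control cultures 1 to 3 and -0.31, -0.97 and -0.15 in RBMX cultures 1 to 3, and over both vectors -0.35 (SE 0.12, adjusted p = 0.121). Without RBMX culture 2 it was -0.23 (adjusted p = 0.337), so the value moved by over 1.5 times. SELT, its neighbour in the same membrane, had 24.7, 22.9 and 29.9 FPKM in control total and 25.6, 24.7 and 27.9 in control polysomal RNA. In RBMX cells SELT was at 20.3, 22.1 and 22.7 FPKM in total and 20.8, 14.3 and 23.0 in polysomal RNA. Again RBMX culture 2 was low in polysomal RNA. The log2 difference of SELT was -0.59 in that culture and between -0.093 and 0.11 in the other 5. Its estimate over both vectors was -0.079 (SE 0.11, adjusted p = 0.727), and it turned to 0.025 without RBMX culture 2.

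Both thioredoxin reductases differed little between the fractions. TXNRD1 was at 54.8, 60.2 and 42.9 FPKM in control total, 57.4, 58.5 and 40.5 in control polysomal, 50.6, 53.8 and 57.5 in RBMX total and 55.3, 55.7 and 63.1 in RBMX polysomal RNA. Control culture 3 was lowest in both fractions. The differences between the fractions of TXNRD1 were from -0.082 to 0.13 by culture, and over both vectors 0.042 (SE 0.11, adjusted p = 0.868). TXNRD2 had 20.3, 19.5 and 14.6 FPKM in control total, 19.3, 19.2 and 14.9 in control polysomal, 20.9, 18.8 and 20.1 in RBMX total and 19.8, 21.0 and 20.9 in RBMX polysomal RNA. It was again lowest in control culture 3. By culture TXNRD2 differed by -0.070 to 0.15, and over both vectors by 0.012 (SE 0.090, adjusted p = 0.964). The supply enzyme SEPHS2 was at 114, 121 and 128 FPKM in control total, 121, 121 and 136 in control polysomal, 111, 114 and 116 in RBMX total and 114, 102 and 123 in RBMX polysomal RNA. Polysomal RNA was slightly above total RNA in 5 of 6 cultures, and RBMX culture 2 was the exception. Over both vectors SEPHS2 differed by 0.024 (SE 0.060, adjusted p = 0.861). The 95% confidence intervals of these differences ran from -0.21 to 0.29 for TXNRD1, -0.19 to 0.21 for TXNRD2 and -0.11 to 0.16 for SEPHS2.

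Counted by culture, 2 of 8 members (SEPW1 and SELK) were lower in polysomal RNA in 6 of 6 cultures, beside 16.5% of all genes tested, and 0 were higher in all of them, beside 16%. In control cells 0 of 8 members were called (0.0818% of genes tested, 12 genes), and at an unadjusted p under 0.05 there was 1, SEPW1, beside 8.04% of genes tested. With the culture block there were 2, SEPW1 and SELK, beside 21.0%. SEPW1 was also the 1 member whose control groups did not overlap, polysomal below total, where 7.31% of genes tested were lower without overlap and 7.63% higher. In RBMX cells 1 of 8 members, SEPW1, was called lower (1.34% of genes tested, 196 genes). Under the culture block this count was 0 of 8, with 4 genes called in all. An unadjusted p under 0.05 was reached in RBMX cells by 4 members without the block, beside 23.0% of genes tested. With the block it was reached by 3 members, beside 21.9%. The RBMX groups of GPX1, GPX4, SEPW1 and SELK did not overlap, all lower in polysomal RNA, beside 16.2% of genes tested lower and 14.6% higher. For pairs of groups of 3 libraries no two-sided exact permutation test can go below p = 0.1. With the culture block over both vectors, 3 of 8 members (SEPW1, GPX1 and GPX4) were called lower, where 10.9% of genes tested were called lower and 6.73% higher. With both standing-apart cultures left out, a setting added after seeing the data, 4 of 8 were called lower. SELK was the fourth (difference -0.25, adjusted p = 0.0419, limma), and 7.38% of genes tested were called lower and 3.28% higher. Control culture 3, left out there, was the only culture in which GPX1 and GPX4 were not lower.

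Coding length moved with these differences over all genes. Among 12491 genes tested with an annotated coding length (85.1%), Spearman's rho between coding bases and the mean polysomal minus total difference was 0.378. By culture it went from 0.0344 in control culture 3 to 0.507 in RBMX culture 2, so the 2 cultures that stood apart were its ends. Over the 8 members the rank correlation with coding bases was 0.762 and with the number of the selenocysteine codon 0.635. Over all 19 selenoprotein genes tested these were 0.477 and 0.550, so the order of both features turned, and the points share the same libraries and are few. Genes with under 300 coding bases (n = 247) had a median difference of -0.19. SEPW1, with 261 coding bases, lay 1.37 below that median and had 0% of these genes below it, while 26.7% lay below SELK with its 282 coding bases. GPX1, with 609 coding bases, had 3.13% of the 1759 genes of 600 to 900 bases below it. Of the 741 genes of 450 to 600 bases, 8.37% lay below GPX4 and 39.7% below SELT. TXNRD1, TXNRD2 and SEPHS2 were near the middle of their classes, with 67.9%, 47.9% and 61.5% of genes below them. The part of coding length in the members' differences was not tested.

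**Figure D4:**
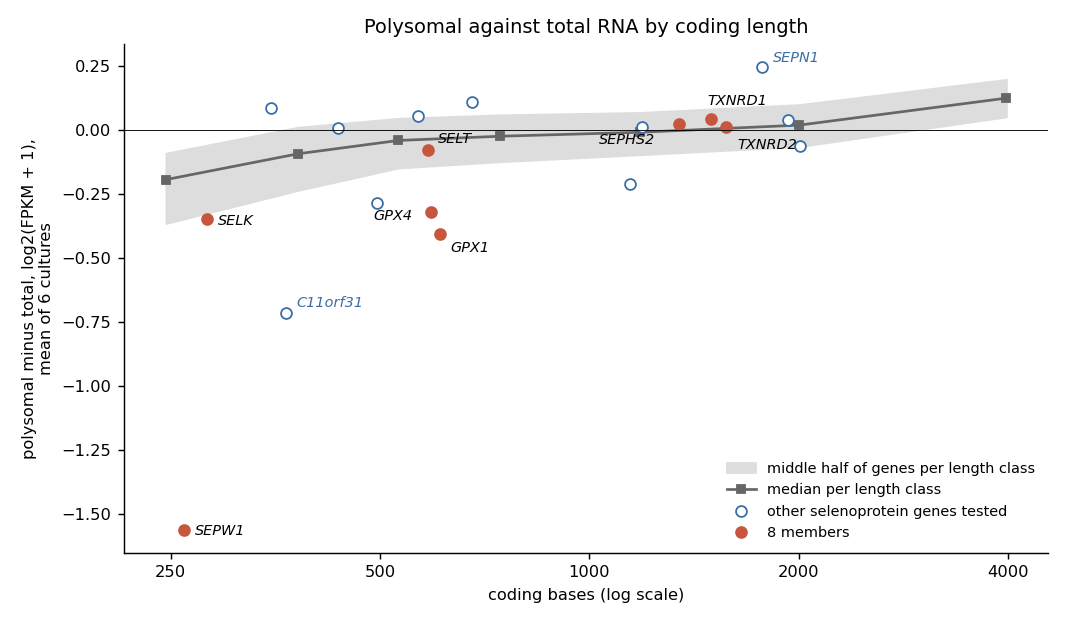
Mean polysomal minus total RNA over 6 cultures (log2(FPKM + 1) scale) is plotted against coding bases on a log axis, with the median and the middle 50% of genes in 7 length classes in grey, the 8 members as red points and 11 other selenoprotein genes as open blue circles. SEPW1 lies at -1.56 against a class median of -0.19, and C11orf31 at -0.71 is the lowest of the other selenoprotein genes.

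The comparison of RBMX with control cells asks whether the level of these messengers changed when RBMX was overexpressed. No member passed the test in either fraction. In total RNA 0 of 8 were called, beside 0.164% of genes tested (24 genes), and in polysomal RNA 0 of 8, beside 0.0477% (7 genes). An unadjusted p under 0.05 was reached by 0 of 8 in both fractions, beside 18.8% of genes tested in total and 11.7% in polysomal RNA. With the replicate number as a block it was reached by 1, SELT in polysomal RNA, beside 12.1%. The median log2 difference of the members was -0.0017 in total and -0.25 in polysomal RNA, against 0 over all genes tested in both. Both comparisons use the libraries that also entered the comparison of fractions.

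In total RNA the log2 differences of RBMX minus control ran from -0.23 for SELT to 0.14 for TXNRD2. Without control culture 3 these 2 values were -0.13 and 0.0018, and that of SEPHS2 was -0.043. SELT, at 24.7, 22.9 and 29.9 FPKM in control and 20.3, 22.1 and 22.7 in RBMX cells, was the 1 member without overlap and was lower in RBMX cells (adjusted p = 0.320), beside 15.4% of genes tested lower without overlap and 11.9% higher. GPX4 differed by -0.18 (SE 0.10, adjusted p = 0.409), TXNRD2 by 0.14 (SE 0.13, adjusted p = 0.588) and SEPHS2 by -0.084 (SE 0.062, adjusted p = 0.497). GPX1, TXNRD1, SEPW1 and SELK lay between -0.0064 and 0.047, and without control culture 3 TXNRD1 was at -0.091, SEPW1 at 0.046 and SELK at 0.085. The intervals were not all narrow: that of TXNRD1 went from -0.29 to 0.38, and that of GPX1 from -0.12 to 0.21.

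In polysomal RNA 6 of 8 estimates were below 0. SELT differed most, by -0.44 (SE 0.18, adjusted p = 0.425), and its RBMX values lay below its control values, as 12.5% of genes tested did. Without RBMX culture 2 the difference of SELT was -0.24. TXNRD2 was at 19.3, 19.2 and 14.9 FPKM in control and 19.8, 21.0 and 20.9 in RBMX cells, a difference of 0.21 (SE 0.12, adjusted p = 0.494), and was the 1 member higher without overlap, beside 10% of genes tested. Its difference was 0.090 without control culture 3. GPX4 stood at -0.29 (SE 0.16, adjusted p = 0.493), SELK at -0.25 (SE 0.22, adjusted p = 0.624), GPX1 at -0.24 (SE 0.19, adjusted p = 0.609) and SEPHS2 at -0.16 (SE 0.10, adjusted p = 0.550). Without control culture 3, GPX4 was at -0.16, SELK at -0.13, SEPHS2 at -0.099 and GPX1 at -0.045. Without RBMX culture 2, SELK was at -0.042 and SEPHS2 at -0.086. The value of SEPW1, -0.32 (SE 0.35, adjusted p = 0.699), had the widest interval, from -1.20 to 0.55. It was 0.067 (adjusted p = 0.806) without control culture 3 and -0.21 without RBMX culture 2. TXNRD1 was at 0.17 (SE 0.16, adjusted p = 0.660) and, without control culture 3, at -0.00032. The HEK293 markers that set control culture 3 apart summed to 429 to 890 FPKM in control total, 834 to 874 in RBMX total, 397 to 943 in control polysomal and 943 to 974 in RBMX polysomal RNA, and their part in these differences was not tested. The 6 markers of cells that should be absent, nearly all of it COL1A1, summed to 3.37 to 5.33 FPKM in control total, 5.82 to 6.76 in RBMX total, 4.26 to 6.09 in control polysomal and 6.78 to 8.87 in RBMX polysomal RNA, where COL1A1 differed by 0.43 (SE 0.16, adjusted p = 0.254) in total and 0.44 (SE 0.17, adjusted p = 0.418) in polysomal RNA. The source of the COL1A1 values and their part in these differences were not tested either.

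**Figure D5:**
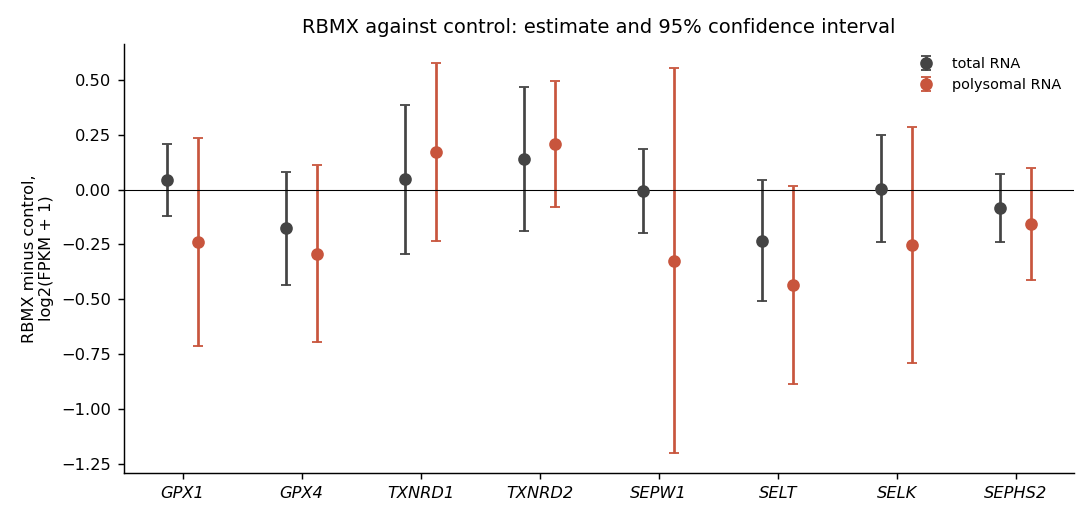
The difference of RBMX minus control cells on the log2(FPKM + 1) scale is shown for each member as a point with its 95% confidence interval from limma, for total RNA in grey and polysomal RNA in red. Every interval includes 0, and that of SEPW1 in polysomal RNA is the widest.

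Whether the polysomal share of a messenger changed with RBMX was tested as the difference of the RBMX effect between polysomal and total RNA, in 1 fit of all 12 libraries. Here 0 of 8 members were called, beside 0.0204% of genes tested (3 genes), and 0 of 8 reached an unadjusted p under 0.05. The estimates ran from -0.32 (SE 0.38) for SEPW1 over -0.28 (SE 0.21) for GPX1 and -0.25 (SE 0.25) for SELK to 0.12 (SE 0.22) for TXNRD1, and their adjusted p was 1.00 throughout. Without control culture 3 the estimate of SEPW1 was 0.020 and that of GPX1 -0.093. Without RBMX culture 2 SEPW1 was at -0.16 and SELK at -0.0083. The interval of SEPW1 with all cultures went from -1.17 to 0.54 on the log2 scale. For SEPHS2 the interval was narrower, from -0.34 to 0.19.

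The other selenoproteins, the machinery that serves them and their partners gave few calls. Of 17 other selenoprotein genes 11 were tested, and GPX6 was lowest with a mean of 0.00765 FPKM over the 12 libraries and SEP15, a folding factor of the endoplasmic reticulum, highest with 172. Over both vectors 1 of the 11 was called lower in polysomal RNA, 1 was called higher, and the median difference was 0.013. The lower gene was C11orf31, which encodes the nucleolar selenoprotein H, with 77.0, 69.7 and 86.9 FPKM in control total, 46.5, 45.5 and 79.1 in control polysomal, 73.5, 83.3 and 81.4 in RBMX total and 42.1, 36.6 and 44.1 in RBMX polysomal RNA. Its difference was -0.71 (SE 0.13, adjusted p = 0.0216), and in RBMX cells -0.94 (SE 0.089, adjusted p = 0.0266), where it was again the only call of the list (adjusted p = 0.118 with the culture block). As for GPX1, GPX4, SEPW1, SELT, SELK and SEPHS2, its polysomal value was highest in control culture 3. The higher gene was SEPN1, a protein of the endoplasmic reticulum linked to congenital muscle disease, with 70.9, 64.9 and 71.0 FPKM in control total, 74.95, 77.6 and 88.2 in control polysomal, 64.9, 61.4 and 65.7 in RBMX total and 72.0, 86.5 and 75.3 in RBMX polysomal RNA. SEPN1 rose by 0.25 (SE 0.062, adjusted p = 0.0473, limma). By culture SEPN1 differed by 0.079 to 0.49 and C11orf31 by -1.17 to -0.13. The drop of C11orf31 was smallest in control culture 3 and largest in RBMX culture 2. Of the 11 genes, 3 were lower in polysomal RNA in 6 of 6 cultures, beside 16.5% of all genes tested. Another 2 were higher in all of them, beside 16%.

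All 14 genes for selenocysteine incorporation and selenium supply were tested, from the uptake receptor LRP2 with a mean of 0.721 FPKM to the ribosomal protein RPL30, which can bind SECIS elements, with 1477. RPL30 was the 1 gene called over both vectors. It was at 1741, 1785 and 2018 FPKM in control total, 1088, 1105 and 1533 in control polysomal, 1658, 1674 and 1840.1 in RBMX total and 1151, 904 and 1224 in RBMX polysomal RNA, with a difference of -0.63 (SE 0.13, adjusted p = 0.0258). The culture block added NCL, which encodes nucleolin, as higher (0.28, adjusted p = 0.0310). SECISBP2 and EEFSEC are named above as the factors that make UGA a selenocysteine codon. Between the fractions they differed by 0.023 (adjusted p = 0.861, limma) and 0.082 (adjusted p = 0.812, limma). Between RBMX and control total RNA they differed by -0.063 (SE 0.075, adjusted p = 0.674, limma) and 0.024 (SE 0.19, adjusted p = 0.960, limma). EEFSEC was at 9.59, 9.62 and 5.78 FPKM in control total and 8.39, 8.19 and 8.29 in RBMX total RNA. Control culture 3 was thus lowest, while control cultures 1 and 2 lay above all RBMX values. These 2 genes were chosen for their role after their values were seen. The median difference between the fractions was 0.014 over the 14 genes.

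Of 6 enzymes without selenocysteine, listed here as cysteine relatives, 4 were tested and 0 were called between the fractions (median 0.057). GPX8 was at -0.12, MSRB3 at 0.088, MSRB2 at 0.078 and MSRA at 0.036. Their mean levels ran from 0.0146 FPKM for GPX5, which was not tested, to 16.8 for MSRB3. Of the 23 partners in the thioredoxin and glutathione systems, all were tested and 0 were called (median 0.035), and the culture block called TXNIP lower (adjusted p = 0.0268). The largest differences were those of TXNIP, an inhibitor of thioredoxin, at -0.27, thioredoxin itself (TXN) at -0.24, KEAP1, the sensor that holds NRF2 in check, at 0.16, and the glutaredoxin GLRX2 at -0.15. Mean levels of the partners ran from 2.39 FPKM for the cystine carrier SLC7A11 to 752 for SOD1. Between RBMX and control cells none of the 4 lists had a call in either fraction. At an unadjusted p under 0.05 there were, in total RNA, 1 of 11 other selenoproteins higher, 1 of 14 supply genes lower, 2 of 4 cysteine relatives lower and 2 of 23 partners lower, beside 18.8% of all genes tested in either direction. In polysomal RNA these counts were 1, 1, 2 and 1, all lower, beside 11.7%. The difference of the RBMX effect between the fractions gave 0 calls in each list and 0 at an unadjusted p under 0.05.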

How the data were processed

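The 12 libraries are those of 3 cultures per vector, total and polysomal. The authors deposited FPKM per gene symbol. The submitters' processing notes name CASAVA 1.8, TopHat2 2.0.13, Cufflinks 2.2.1, Cuffnorm and hg19, with no roles given. The paper's methods describe hg38 and a count analysis with DESeq2, and the counts were not used here. From the authors' FPKM, log2(FPKM + 1) was computed, a scale that understates fold changes of low genes. The 14676 genes whose mean reached 0.5 FPKM entered limma 3.58.1 in R 4.3.3 (lmFit, eBayes with an intensity trend), with p-values adjusted by Benjamini-Hochberg over all of them and a threshold of 0.05, in 6 comparisons. All columns matched a sample by its description. Selenocysteine codons, coding lengths and transcript sequences came from GENCODE v29, matched by symbol, older symbols included, and plots from Python 3.11.15 and matplotlib 3.10.9.

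Total RNA was pooled from the fractions of a gradient, by which the same-numbered total and polysomal libraries of a vector were taken as 1 culture. The labels also speak of separate dishes for the 2 extractions, so this pairing is not certain. Over 14162 genes that are not small RNA genes, their deviations from the group means correlated by 0.618, 0.718 and 0.847 (control cultures 1 to 3) and 0.230, 0.0208 and 0.684 (RBMX cultures 1 to 3), genes not being independent replicates. Over all genes tested the values were lower, 0.0758, 0.0991 and 0.311 and then 0.00177, 0.0219 and 0.0893. The main fits did not use the pairing of libraries. Values with the culture as a block stand beside results they change. The replicate number shared between vectors is only a number.

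The members and the 4 gene lists (other selenoproteins, incorporation and supply, cysteine relatives, partners) were chosen with earlier results of these data known. All 8 members were named, and of each list every gene called, otherwise up to 4 genes with the largest difference between fractions, and the lowest and highest mean FPKM. Alternatives were leaving out each replicate, a pseudocount of 0.1, no filter or a minimum of 1 FPKM, quantile normalization, median-ratio rescaling, blocks, and a fit of all 12 libraries. The fits were also run on simulated data with noise drawn independently for each library. That simulation held no culture pairing and no culture that stood apart, so it cannot speak for either. Leaving out both standing-apart cultures, and the block without control culture 3, were added after seeing the data. One result is not reported here.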

Additional observations from a re-analysis of the deposited data

How the results depend on the processing

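Of 568 values of the members under alternatives, 517 kept direction and side of the threshold, 9 gained a call, 10 lost one and 32 changed sign, all of values without a call. FPKM without fragment numbers gives no depth, so no limit of detection can be stated, and 3 libraries per group limit every p. The cause of the changes was not tested, beyond fewer libraries or another number of genes tested.

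Counts of genes called moved as follows. RBMX against control in total RNA (24) gave 73 with no filter, 13 with the replicate block, 60 with all 12 libraries in 1 fit and 19 to 178 with a replicate left out. In polysomal RNA (7) it gave 3 with the block, 22 with all 12 libraries and 9 to 126 with a replicate left out. Polysomal against total RNA in control cells (12) gave 6 with the culture block and 13 to 199 with a replicate left out. In RBMX cells (196) it gave 53 with no filter, 70 with quantile normalization, 4 with the block and 21 to 23 with a replicate left out. Over both vectors (970) it gave 2584 with the block, 40 to 2405 with a replicate left out, and 1564 or, with the block, 1856 without both standing-apart cultures. The RBMX effect in polysomal minus total RNA (3) gave 5 with no filter, 5 with the block and 4 to 7 with a replicate left out.

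Members called were 0 under every alternative for RBMX against control and for its difference between fractions. In control cells they were 0 to 1 with a replicate left out. In RBMX cells (1) they were 2 with median-ratio rescaling, where GPX1 joined, 0 with the block and 0 to 1 with a replicate left out. Over both vectors (2) they were 1 with no filter, where GPX1 was lost (adjusted p = 0.0752), 0 to 3 with a replicate left out, and 4 without both standing-apart cultures, with or without the block. The block changed no other call of a member than those of SEPW1 in RBMX cells and GPX4 over both vectors.

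Signs that changed were these. In RBMX against control total RNA, quantile normalization gave -0.057 for GPX1, -0.015 for TXNRD1 and -0.086 for SELK, and median-ratio rescaling 0.0067 for SEPW1. With a replicate left out, TXNRD1 ranged from -0.091 to 0.15, SEPW1 from -0.057 to 0.046 and SELK from -0.078 to 0.085. In polysomal RNA, TXNRD1 ranged from -0.00032 to 0.26 and SEPW1 from -0.56 to 0.067. Between fractions in control cells, quantile normalization gave 0.0014 for TXNRD1, and with a replicate left out TXNRD1 ranged from -0.062 to 0.013, TXNRD2 from -0.043 to 0.0012 and SELT from -0.020 to 0.080. In RBMX cells, quantile normalization gave 0.099 for SEPHS2, and with a replicate left out TXNRD2 ranged from -0.010 to 0.10, SELT from -0.29 to 0.027 and SEPHS2 from -0.059 to 0.062. Over both vectors, TXNRD2 ranged from -0.016 to 0.040 and SELT from -0.13 to 0.025 with a replicate left out, and without both standing-apart cultures, with or without the block, they were -0.027 and 0.054. For the difference between fractions, quantile normalization gave 0.040 for GPX4 and 0.0072 for SEPHS2, and with a replicate left out GPX4 ranged from -0.23 to 0.035, SEPW1 from -0.55 to 0.020, SELT from -0.31 to 0.0051 and SEPHS2 from -0.12 to 0.0020.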
